A study of Mus musculus with 16 samples.

Results

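The synaptic vesicle release machinery is the set of proteins with which a nerve terminal stores, docks, primes and fuses its transmitter vesicles. Its genes were described here in the mouse dorsal hippocampus with and without exogenous Dnmt3a2, a short isoform of the DNA methyltransferase Dnmt3a. Genes were taken by symbol: the synaptotagmins (Syt), syntaxins (Stx), Vamp genes, Snap25, Snap23, Snap29 and Snap91, the syntaxin-binding proteins (Stxbp), complexins (Cplx), Rims, Rab3, Unc13, synapsins (Syn), Doc2 and Sv2 genes, and Syp, Bsn, Pclo and Nsf. This gave 76 of the 16907 genes in the deposited expression files. A further 5 symbols that fit the same names, Cplx4, Stxbp3-ps, Stx19, Vamp9 and Syt8, were among the 55385 genes with counts but had mean counts too low for the expression files and were not analysed further.

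Mice received a recombinant adeno-associated virus (rAAV) in the dorsal hippocampus that drove either GFP, the control, or exogenous Dnmt3a2, and 3 weeks later all of them, controls included, went through contextual fear conditioning, in which a chamber is paired with a foot shock. Hippocampal tissue was taken 1 day or 5 days after conditioning. Bulk RNA of each combination of virus and day was sequenced as 4 libraries, 16 in all, with totals of 28.6 to 30 M estimated counts. The labels give neither strain, sex, age nor the promoter of the viruses, include no group without conditioning and do not say whether tissue was pooled or whether the libraries come from separate animals, so p-values measure the spread between these libraries.

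Fusion is driven by SNARE proteins: Vamp2 on the vesicle zips together with a syntaxin and Snap25 on the plasma membrane. Unc13 proteins open the syntaxin during priming, complexins clamp and assist the assembled complex, and Nsf takes spent complexes apart. Synaptotagmins and Doc2 proteins carry C2 domains, with which several of them sense calcium. Rims, Bassoon (Bsn) and Piccolo (Pclo) organise the active zone, and Rab3, synapsins, Sv2 proteins and synaptophysin (Syp) sit on the vesicle. The SNARE families also serve membrane traffic in other cells and organelles, so the symbols cover more than the synapse.

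Dnmt3a itself checked the labels: its level was 32.7 to 37.7 CPM (counts per M of the scaled library total) in the 8 control libraries and 623 to 1249 CPM in the 8 Dnmt3a2 libraries. The tissue expressed all 6 excitatory and all 6 inhibitory neuron markers examined. Some libraries stood apart. The summed level of 10 choroid plexus markers was 879 CPM in replicate 1 of Dnmt3a2 at 1 day and 1406 CPM in replicate 1 of Dnmt3a2 at 5 days, against 42.9 to 212 CPM in the other 14, and 10 interferon response genes summed to 91.4, 105 and 142 CPM in replicate 1 of control at 1 day and in the same 2 Dnmt3a2 libraries. The summed level of the 76 release machinery genes was 18771 to 20911 CPM.

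Regulatory sequence is shown for 2 genes, because Stx1a was called in the comparison below and Sv2b had the smallest p at 5 days; both windows end at the gene start annotated in GENCODE M21. Each is the 250 bases before the start on the gene's strand, 5′ to 3′, from RefSeq's promoter table for GRCm38.p6, in which 58 of the 76 genes had an entry. Doc2a had none there. Stx1a is taken from chr5:135023232-135023481 on the plus strand and Sv2b from chr7:75309263-75309512 on the minus strand. Capitals mark CG dinucleotides, a kind of site that DNA methyltransferases modify.
Stx1a: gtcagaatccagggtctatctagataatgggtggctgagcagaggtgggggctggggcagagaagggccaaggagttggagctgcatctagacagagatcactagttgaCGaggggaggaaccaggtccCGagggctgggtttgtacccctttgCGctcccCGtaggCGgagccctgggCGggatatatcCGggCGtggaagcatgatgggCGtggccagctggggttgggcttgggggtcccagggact
Sv2b: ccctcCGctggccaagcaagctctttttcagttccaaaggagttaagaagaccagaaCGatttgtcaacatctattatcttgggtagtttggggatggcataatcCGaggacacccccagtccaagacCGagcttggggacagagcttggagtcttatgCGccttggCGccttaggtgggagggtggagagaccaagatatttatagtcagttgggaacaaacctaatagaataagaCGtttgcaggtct

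The Stx1a window holds 9 CG dinucleotides, and 40.3% of all 32851 RefSeq windows of this length hold as many or more. The Sv2b window holds 7, a number that 46.3% of windows reach. The median window holds 6, and the median over the 72 windows of release machinery genes is 15. The hexamer GGGCGG, read on both strands and overlapping a CG, is present in the Stx1a window and in 32.7% of all windows, and is not in the Sv2b window. Methylation was not measured in these libraries, so the letters are a description only.

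Levels ran from 0.461 CPM for Stx11 to 2222 CPM for Cplx2. Of the 76 genes, 30 had a mean of at least 100 CPM over the 16 libraries, 31 had 10 to 100 CPM, 14 had 1 to 10 CPM and 1 was under 1 CPM. The 10 most abundant made up 64.6% of the summed level. Spread followed level: the coefficient of variation over all 16 libraries had a median of 5.91% for genes of at least 100 CPM and 23.4% for genes under 10 CPM.

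**Figure D1:**
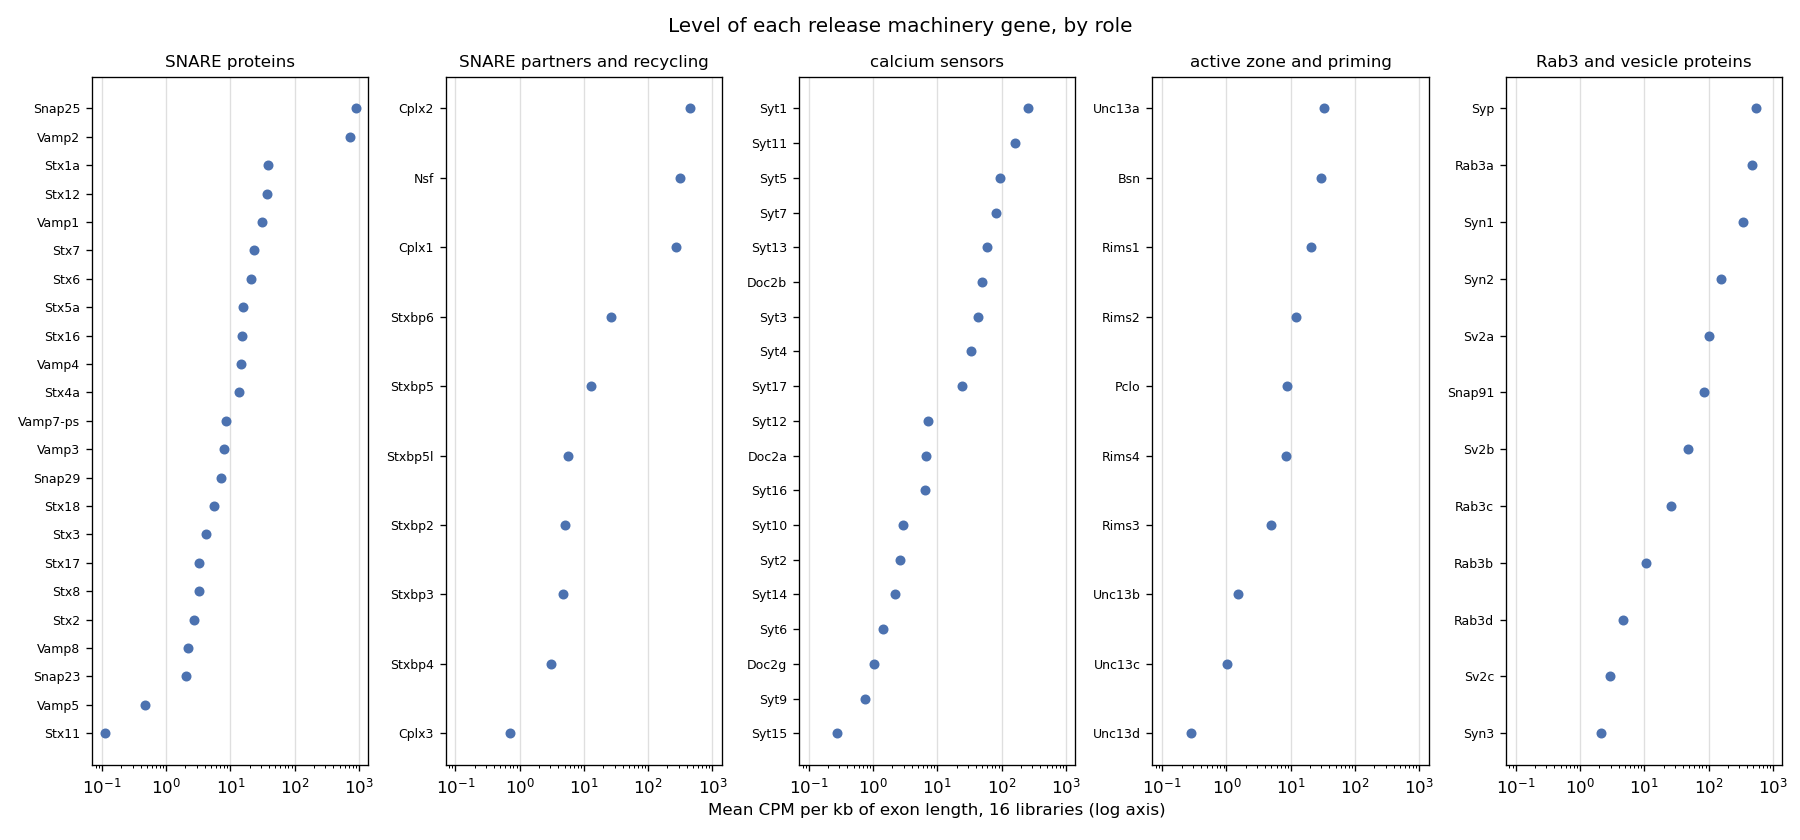
Mean level of each of 74 of the 76 genes over 16 libraries, in CPM per kb of exon length on a log axis, one panel per role. Snap25 is the highest at 887 CPM per kb and Stx11 the lowest at 0.11 CPM per kb.

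Among the 24 SNARE genes, the neuronal fusion set stood highest per length: Snap25 had a level of 887 CPM per kb of exon and Vamp2 737, against 38.4 for Stx1a. Snap25, the membrane-attached SNARE, averaged 1812 ± 57.6 CPM (SD, n = 4, as for all group means here) in control and 1888 ± 46.2 in Dnmt3a2 at 1 day, and 1849 ± 44.0 and 1955 ± 133 at 5 days. Vamp2, the vesicle SNARE, averaged 1608 ± 95.3 and 1669 ± 82.4 CPM at 1 day and 1645 ± 99.6 and 1579 ± 25.8 CPM at 5 days. The libraries of control and Dnmt3a2 overlapped for both genes at each day. Stx1a, at 82.9 CPM on average, is described below, and 20 further SNARE genes, which include those of endosomes and the Golgi such as Stx6, Stx16 and Vamp4, averaged 0.461 to 109 CPM. Vamp7-ps, at 5.6 CPM, is a processed pseudogene. Vamp7 itself fits the same names but was not among the named genes with counts, so it is not analysed here. Reads of Vamp7 could have been assigned to Vamp7-ps.

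The SNARE partners were represented at the top by Cplx2, Nsf and Cplx1, with levels of 451, 312 and 274 CPM per kb. Cplx2 averaged 2141 ± 30.1 CPM in control and 2374 ± 131 in Dnmt3a2 at 1 day, and 2185 ± 188 and 2187 ± 171 at 5 days. Cplx1 averaged 622 ± 12.9 and 598 ± 55.2 CPM at 1 day and 595 ± 14.4 and 583 ± 20.6 CPM at 5 days. Both complexins are neuronal, and Cplx3, known from retina, was the lowest of the 11 partners at 2.02 CPM. Nsf, the disassembly ATPase, averaged 1133 ± 61.1 and 1152 ± 30.6 CPM at 1 day and 1196 ± 27.3 and 1212 ± 68.2 CPM at 5 days.

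Of the 19 synaptotagmin and Doc2 genes, Syt1, the main sensor of synchronous release, was highest at 259 CPM per kb, followed by Syt11 at 163. Syt7, linked to asynchronous release and facilitation, stood at 82.2 CPM per kb. Doc2b and Doc2a, sensors linked to spontaneous and asynchronous release, stood at 50.0 and 6.6 CPM per kb, and Doc2g at 1.03. Syt15 was the lowest, with 0.279 CPM per kb. Among the 10 active zone and priming genes, with lengths of 4046 to 20084 bases, Unc13a stood highest at 33.0 CPM per kb. Unc13a averaged 337 ± 10.6 and 322 ± 27.0 CPM at 1 day and 343 ± 4.87 and 352 ± 21.3 CPM at 5 days, in control and Dnmt3a2 respectively. Rims1, a Rab3 effector, averaged 133 ± 10.9 and 139.6 ± 8.60 CPM at 1 day and 130.0 ± 4.04 and 139 ± 8.03 CPM at 5 days. The libraries of the 2 viruses overlapped for these genes and for the scaffold genes at each day. Bsn averaged 444 ± 49.8 and 463 ± 28.2 CPM at 1 day and 466 ± 33.9 and 488 ± 52.9 CPM at 5 days. Pclo averaged 162 ± 12.7 and 166 ± 19.7 CPM at 1 day and 182 ± 14.6 and 193 ± 35.1 CPM at 5 days.

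The 12 genes grouped as Rab3 and vesicle proteins, with Snap91 counted among them, were led by Syp, Rab3a and Syn1, with 539, 469 and 343 CPM per kb. Syp, the usual vesicle marker, averaged 1382 ± 65.2 CPM in control and 1378 ± 72.9 in Dnmt3a2 at 1 day, and 1396 ± 47.5 and 1425 ± 56.8 at 5 days. Rab3a, the vesicle GTPase, averaged 736 ± 39.6 and 709 ± 31.7 CPM at 1 day and 747 ± 30.7 and 728 ± 30.3 CPM at 5 days. Syn1, which tethers vesicles in the reserve pool, averaged 1073 ± 75.5 and 1158 ± 28.1 CPM at 1 day and 1105 ± 54.8 and 1136 ± 19.8 CPM at 5 days. The libraries of control and Dnmt3a2 overlapped for these 3 genes at each day. Sv2a averaged 425 ± 22 and 446 ± 29.2 CPM at 1 day and 438 ± 8.68 and 469.9 ± 25.7 CPM at 5 days.

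Dnmt3a2 was compared with control first over both days together, which uses all 16 libraries. Doc2a and Stx1a fell, and the other 74 genes did not pass the test. Doc2a was 0.78 times the control level and Stx1a 0.87 times. Most of the machinery moved little: the change was within 1.1-fold for 62 of the 76 genes, and the 95% interval of the change lay within 1.2-fold in either direction for 55, among them 17 of 18 core genes of textbook fusion (Stx1a was the exception). The edgeR quasi-likelihood test called 2 of 76 genes (2.63%) at a Benjamini-Hochberg adjusted p under 0.05, beside 1.43% of all 16899 genes tested. At an unadjusted p under 0.05 it found 16 of 76, 8 higher and 8 lower, or 21.1%, beside 12.1% of all genes. The median log2 change was -0.0034 over the 76 genes and 0.0063 over all genes.

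**Figure D2:**
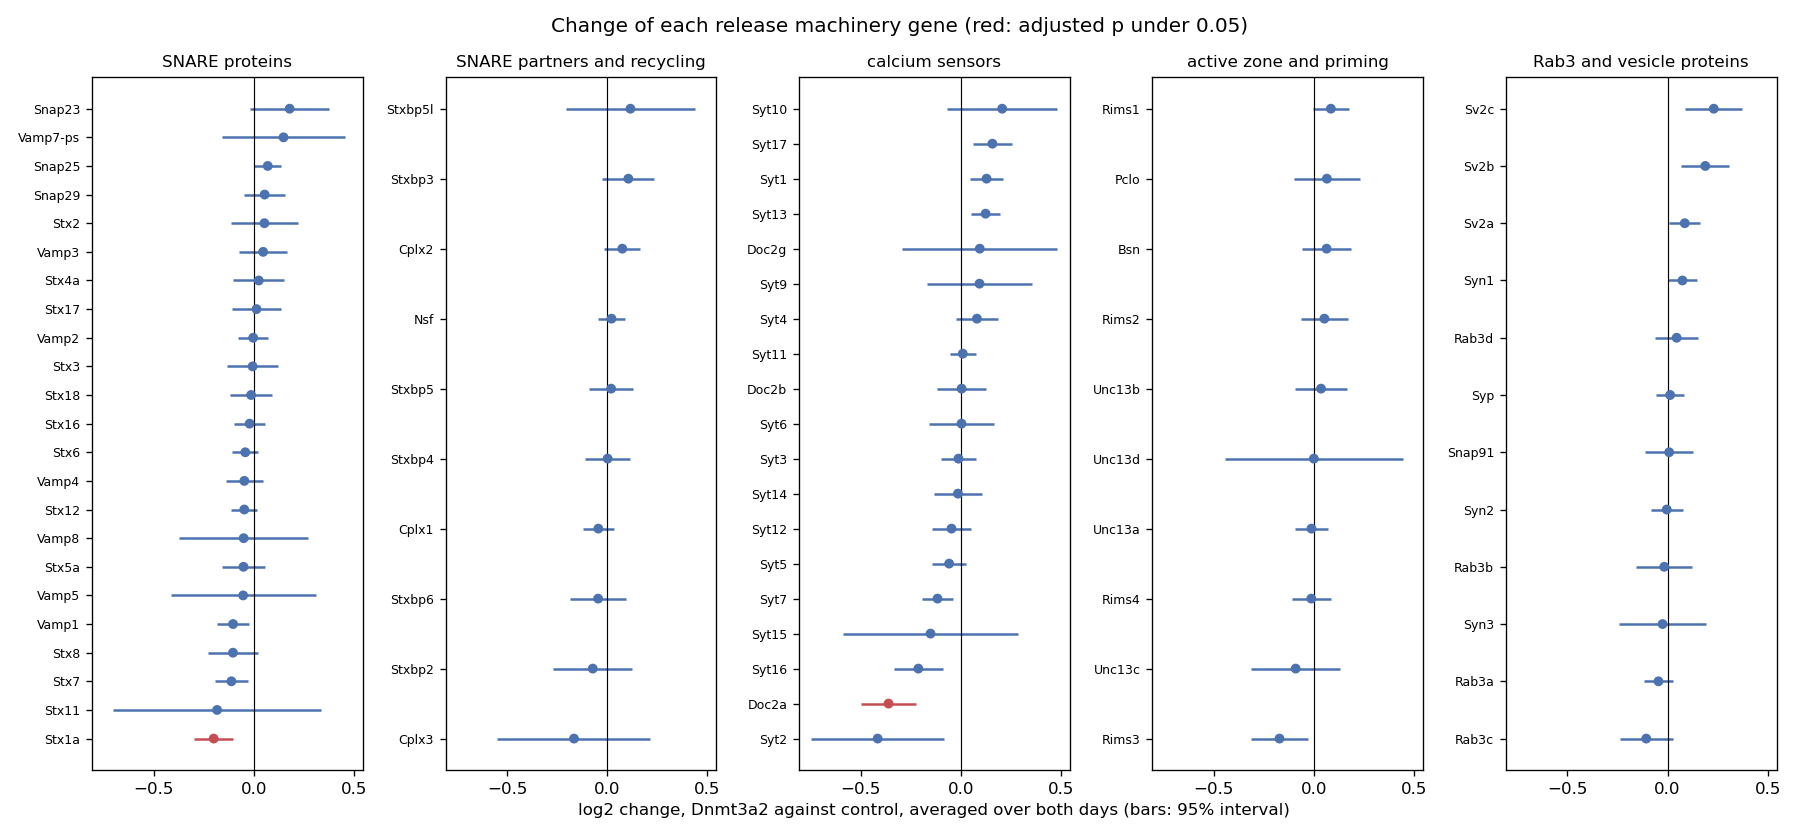
Change of each of 74 of the 76 genes with Dnmt3a2, as the log2 fold change averaged over both days (points) with its 95% interval (bars), one panel per role. Red marks Doc2a and Stx1a, at -0.36 and -0.20, the 2 genes with an adjusted p under 0.05.

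Doc2a (ENSMUSG00000052301, chr 7, 126847416 to 126852705, plus strand, GRCm38) encodes a soluble C2-domain protein that binds calcium with high affinity. Its level in the 4 control libraries was 16.6, 19.2, 23.1 and 19.9 CPM at 1 day and 18.5, 17.2, 19.5 and 17.6 CPM at 5 days. With Dnmt3a2 it was 13.0, 15.9, 16.5 and 15.1 CPM at 1 day and 13.6, 13.2, 15.6 and 15.3 CPM at 5 days. All 8 Dnmt3a2 libraries lay below all 8 control libraries, at both days. The averaged log2 change was -0.36 (SE 0.066, 95% interval -0.50 to -0.22, edgeR adjusted p = 0.0065), and at the single days it was -0.38 (adjusted p = 0.197) and -0.34 (adjusted p = 0.184). The averaged call held under every alternative run, with an adjusted p of at most 0.0217, reached when the 2 choroid-rich libraries were left out. Doc2a overlaps Ino80e, a chromatin remodelling gene on the opposite strand, and whether counting used strand is unknown here. Ino80e had levels of 39.3 to 48.3 CPM over the control libraries and 37.2 to 48.2 CPM over the Dnmt3a2 libraries, which overlap.

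Doc2b, its paralog, had 204, 205, 238 and 223 CPM in control and 267, 218, 197 and 238 CPM in Dnmt3a2 at 1 day, and 202, 203, 221 and 245 CPM in control and 222, 215, 201 and 192 CPM in Dnmt3a2 at 5 days. These libraries overlap at both days, and the averaged log2 change was 0.00 (SE 0.059, edgeR adjusted p = 0.984). Whether the changes of Doc2a and Doc2b differ was not tested.

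Stx1a (ENSMUSG00000007207, chr 5, 135023482 to 135051100, plus strand) encodes a neuronal plasma membrane syntaxin. Its level was 83.5, 88.7, 95.5 and 96.8 CPM in control and 71.9, 77.0, 79.8 and 87.0 CPM in Dnmt3a2 at 1 day. At 5 days it was 82.7, 80.9, 95.5 and 86.1 CPM in control and 75.7, 72.7, 79.0 and 74.6 CPM in Dnmt3a2. The groups overlap at 1 day, through replicate 1 of control and replicate 4 of Dnmt3a2, and not at 5 days. The averaged log2 change was -0.20 (SE 0.046, 95% interval -0.30 to -0.10, edgeR adjusted p = 0.0328). This call rests on single libraries: the adjusted p was 0.0546 to 0.0802 without any one of control replicates 2, 3 or 4 at 1 day, control replicates 3 or 4 at 5 days, Dnmt3a2 replicates 1, 2 or 3 at 1 day or Dnmt3a2 replicates 2 or 4 at 5 days, and 0.0704 without the 2 choroid-rich libraries, with a log2 change of -0.21 to -0.17 throughout.

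In bulk tissue, fewer cells of a type and less RNA per cell cannot be told apart. The summed level of 6 excitatory neuron markers was 11374 to 11814 CPM in control and 10735 to 11838 CPM in Dnmt3a2 at 1 day, and 11090 to 12295 CPM in control and 10322 to 10829 CPM in Dnmt3a2 at 5 days. It was thus lower without overlap in Dnmt3a2 at 5 days, a sum dominated by Camk2a. Camk2a was the single one of the 6 that the averaged comparison called (log2 change -0.13, edgeR adjusted p = 0.0383). At 5 days 4 of these 6 markers had a log2 change above 0, with a median of 0.03 and a lowest value of -0.22. Of the 6, 1 was called lower at 5 days (edgeR adjusted p = 0.0448), and 2 had an unadjusted p under 0.05, both lower. The 6 inhibitory neuron markers summed to 625 to 774 CPM in control and 667 to 782 CPM in Dnmt3a2. Glial content varied too. The sum of 6 oligodendrocyte markers was 3338 to 4893 CPM in control and 3804 to 5623 CPM in Dnmt3a2 at 1 day. At 5 days it was 2892 to 4049 CPM in control and 3034 to 3729 CPM in Dnmt3a2. The part of cell composition in the Doc2a and Stx1a changes was not tested.

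Of the genes that came next in the averaged comparison, Syt13 and Syt17 were higher and Syt16 lower, with adjusted p-values above 0.05. Syt13 and Syt16 are atypical synaptotagmins that do not act as classical calcium sensors. Syt13 had 212, 214, 228 and 208 CPM in control and 225, 226, 225 and 239.8 CPM in Dnmt3a2 at 1 day, and 211, 199, 223 and 221 CPM against 232, 231, 240.0 and 251 CPM at 5 days. Its averaged log2 change was 0.12 (SE 0.034, edgeR adjusted p = 0.0792), and the libraries overlapped at 1 day through replicate 3 of control and not at 5 days. Syt16 had 52.7, 52.3, 66.0 and 49.2 CPM in control and 42.2, 51.6, 46.7 and 45.2 CPM in Dnmt3a2 at 1 day, and 58.6, 60.1, 49.7 and 58.9 CPM against 48.6, 52.9, 51.5 and 48.2 CPM at 5 days. Its averaged log2 change was -0.21 (SE 0.059, edgeR adjusted p = 0.087), with overlap at both days. Without control replicate 3 at 5 days, its lowest control there, the adjusted p of Syt16 was 0.0448. Syt17 had 62.0, 65.1, 72.4 and 63.8 CPM in control and 69.6, 79.9, 70.0 and 84.6 CPM in Dnmt3a2 at 1 day, and 66.2, 68.3, 66.6 and 73.1 CPM against 73.8, 77.7, 74.1 and 70.0 CPM at 5 days. Its averaged log2 change was 0.16 (SE 0.047, edgeR adjusted p = 0.103). DESeq2's Wald test, run as an alternative, also called Sv2c, Syt13, Syt16 and Syt17, 6 genes in all.

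**Figure D3:**
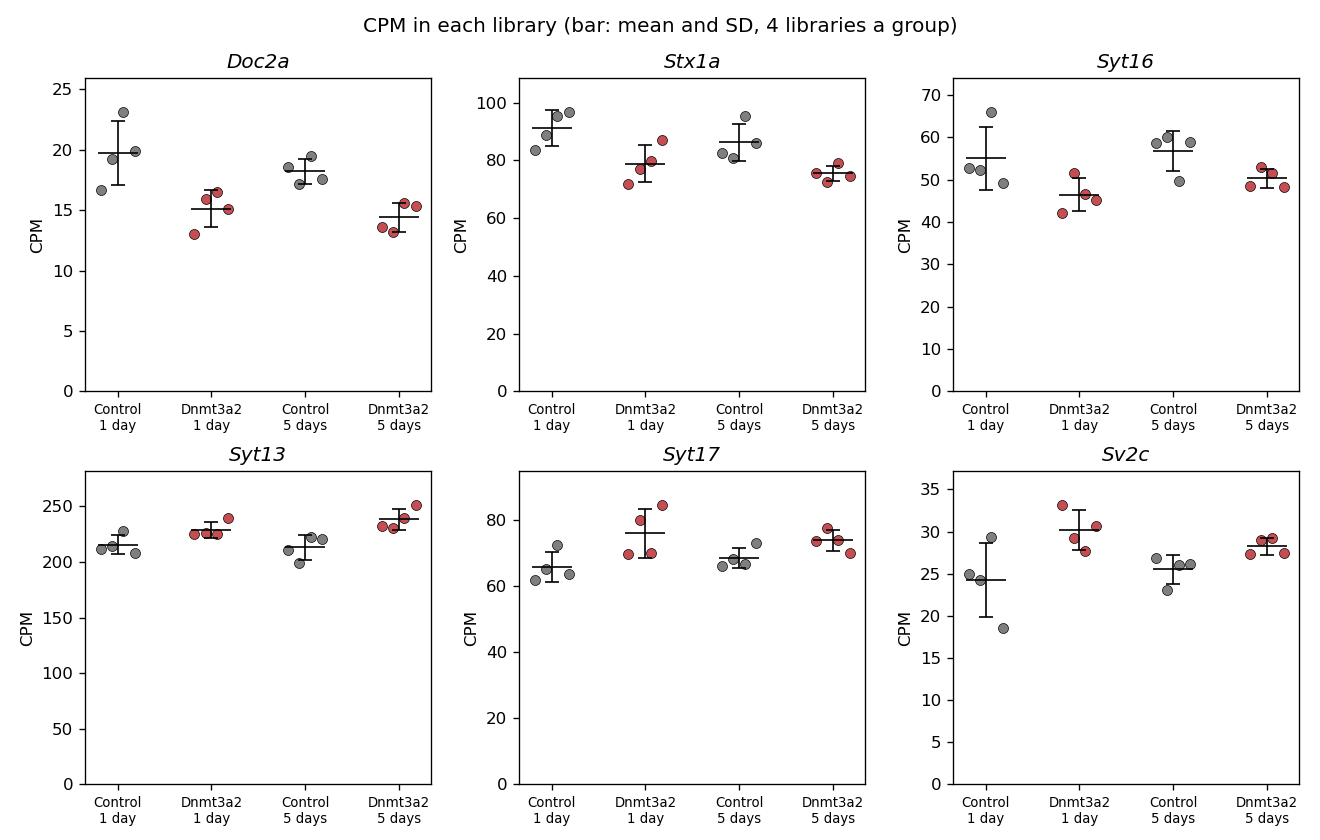
CPM of 6 genes in each library (points), with the mean and SD of the 4 libraries of each group (bars), for control (grey) and Dnmt3a2 (red) at 1 and 5 days. Doc2a lies lower in all 8 Dnmt3a2 libraries than in all 8 controls, between 13.0 and 16.5 CPM, while the groups of the other 5 genes overlap at one day or both.

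At 1 day no gene of the machinery passed the edgeR test, beside 0.0888% of all genes, and DESeq2 and limma called none either; without a filter on low counts edgeR called Doc2a alone (adjusted p = 0.048). At an unadjusted p under 0.05 there were 9 of 76 (11.8%), 4 higher and 5 lower, beside 7.17% of all genes. Groups did not overlap for 1 higher gene, Cplx2, beside 1.67% of all genes, and for 1 lower gene, Doc2a, beside 1.76%. Cplx2, the complexin of excitatory terminals, had 2184, 2138, 2127 and 2115 CPM in control and 2467, 2335, 2205 and 2488 CPM in Dnmt3a2, which differ by 0.15 on the log2 scale (SE 0.061, edgeR adjusted p = 0.575). After Doc2a, the smallest p belonged to Sv2c, the least abundant of the 3 Sv2 vesicle glycoproteins. Sv2c had 24.9, 24.3, 29.3 and 18.6 CPM in control and 33.2, 29.2, 27.7 and 30.6 CPM in Dnmt3a2 at 1 day, which overlap through replicate 3 of control. Its log2 change at 1 day was 0.31 (SE 0.097, edgeR adjusted p = 0.385). Stx1a, Syt17 and Syt16 followed, with log2 changes at 1 day of -0.21, 0.21 and -0.25 and edgeR adjusted p-values of 0.398, 0.398 and 0.431.

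At 5 days no gene passed the edgeR test either, beside 0.32% of all genes, and none was called by DESeq2 or limma. At an unadjusted p under 0.05 there were 10 of 76 (13.2%), 3 higher and 7 lower, beside 8.01% of all genes. Groups did not overlap for 3 higher genes (3.95%), Sv2c, Snap29 and Syt13, beside 3% of all genes, and for 7 lower genes (9.21%), Doc2a, Stx1a, Stx7, Stx8, Stx11, Vamp1 and Syt7, beside 3.29%. Of these 7, all but Doc2a and Syt7 are SNARE genes. Of the 24 SNARE genes, 6 had a log2 change above 0 at 5 days and the median was -0.06, beside 52.8% of all genes above 0 and a median of 0.01. Above 0 at 5 days in the other roles were 5 of 11 SNARE partners and 13 of 19 synaptotagmin and Doc2 genes. So were 7 of 10 active zone and priming genes and 9 of 12 vesicle genes. At 1 day 12 of the 24 SNARE genes were above 0. Per library, the log2 level of each SNARE gene was taken against its mean over all 16 libraries and averaged over the 24 genes. At 5 days this score was -0.019 to 0.028 in control and -0.11 to -0.005 in Dnmt3a2, which overlap.

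The smallest p at 5 days belonged to Sv2b, the vesicle glycoprotein that modulates calcium-dependent release. Its level at 5 days was 254, 264, 241 and 225 CPM in control and 258, 331, 304 and 314 CPM in Dnmt3a2. Replicate 1 of Dnmt3a2, the library richest in choroid plexus markers, lay among the controls and the other 3 above them. That library also had the highest summed level of the interferon response genes, 142 CPM. Its Dnmt3a level was the lowest of its group, 1015 CPM against 1136 to 1249 CPM. The log2 change of Sv2b was 0.30 (SE 0.081, edgeR adjusted p = 0.179), and without that library it was 0.36 with an adjusted p of 0.0419. Syt1 showed the same library apart: 1253, 1261, 1165 and 1154 CPM in control against 1214, 1479.7, 1399 and 1420.4 CPM in Dnmt3a2, a difference of 0.19 in log2 (SE 0.057, edgeR adjusted p = 0.246) with all libraries and of 0.25 (adjusted p = 0.0459) without replicate 1. Neither gene was called with all libraries, and leaving out control replicate 4 at 5 days gave adjusted p-values of 0.52 for Sv2b and 0.63 for Syt1. The parts of choroid plexus tissue, interferon response and Dnmt3a level in these values were not tested, and they cannot be told apart in that library.

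Syt7 moved the other way from Syt1 at 5 days. Its level was 531, 539, 617 and 590.4 CPM in control and 496, 498, 504 and 509 CPM in Dnmt3a2, without overlap, and the log2 change was -0.18 (SE 0.051, edgeR adjusted p = 0.189). At 1 day Syt7 had 561, 565, 593 and 533 CPM in control and 555, 531, 516 and 574 CPM in Dnmt3a2, which overlap. Stx8, an endosomal SNARE, had 16.9, 14.4, 13.7 and 14.9 CPM in control and 13.6, 11.2, 12.6 and 12.4 CPM in Dnmt3a2 at 5 days, which differ by -0.27 on the log2 scale (SE 0.084, edgeR adjusted p = 0.282), and its lowest control lay just above its highest Dnmt3a2 library.

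**Figure D4:**
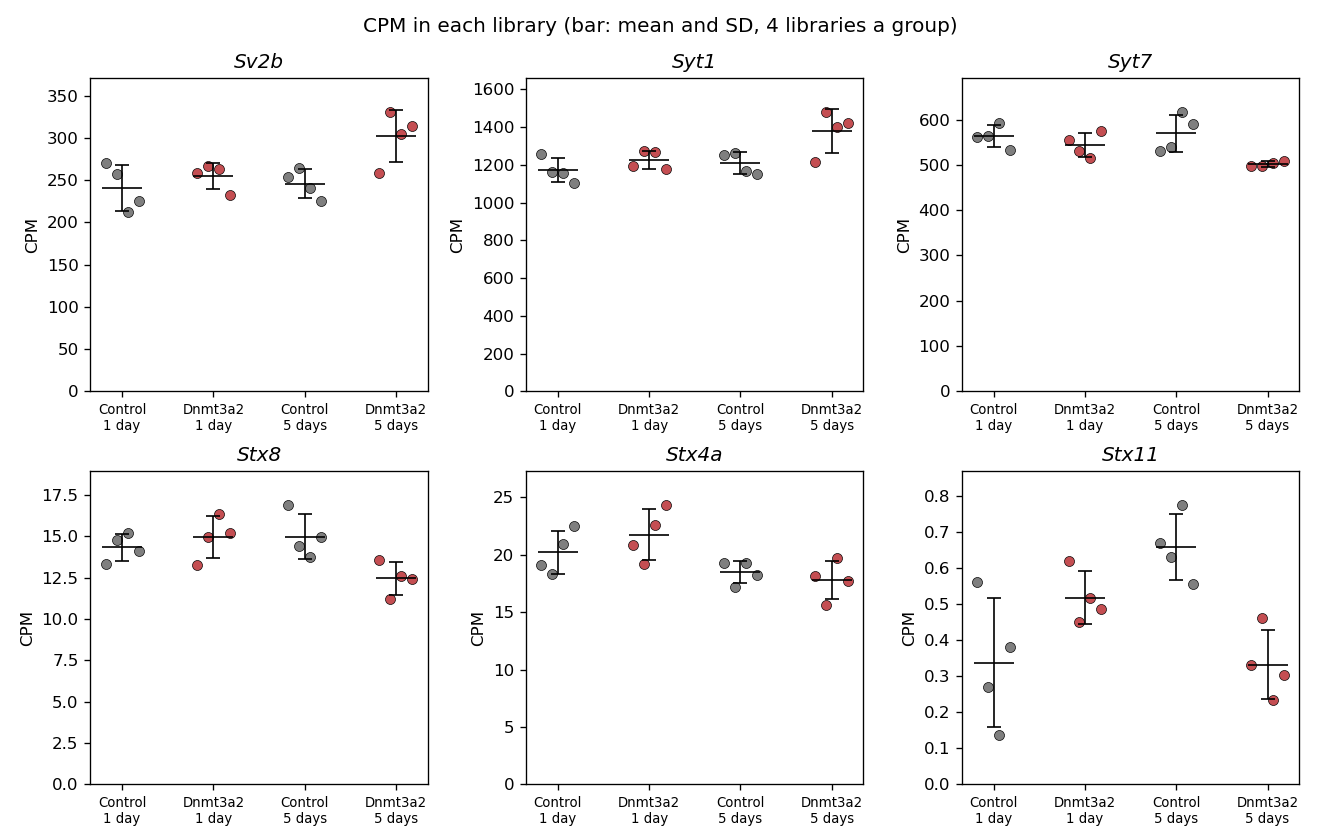
CPM of 6 genes in each library (points), with the mean and SD of the 4 libraries of each group (bars), for control (grey) and Dnmt3a2 (red) at 1 and 5 days. For Sv2b and Syt1, 3 Dnmt3a2 libraries at 5 days lie above all controls and replicate 1, at 258 and 1214 CPM, lies among them.

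The effect of Dnmt3a2 at 1 day and at 5 days rests on different libraries. Of the 76 genes, 24 were higher and 23 lower at both days, 47 with the same sign. Across the genes, which are not independent replicates, Spearman's rho between the log2 changes of the 2 days was 0.313 (n = 76), given as a description; the 2 values of a gene come from separate libraries, with the same depth and preparation. The difference between the effects at the 2 days passed the edgeR test for no gene of the machinery and for 0% of all genes, with 2 of 76 (2.63%) at an unadjusted p under 0.05 beside 2.13% of all genes, and DESeq2 and limma called none of the machinery. Those 2 were Stx11 and Stx8, with log2 differences of -1.58 (SE 0.497) and -0.33 (SE 0.119), each at an edgeR adjusted p of 1. Stx11, a syntaxin of immune cells, was near the detection limit of these libraries, with 0.137 to 0.774 CPM. Sv2b and Syt7 came next, with log2 differences of 0.21 and -0.13, both at an adjusted p of 1. For Doc2a and Stx1a the difference was 0.04 (95% interval -0.23 to 0.32) and 0.01 (-0.18 to 0.21).

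**Figure D5:**
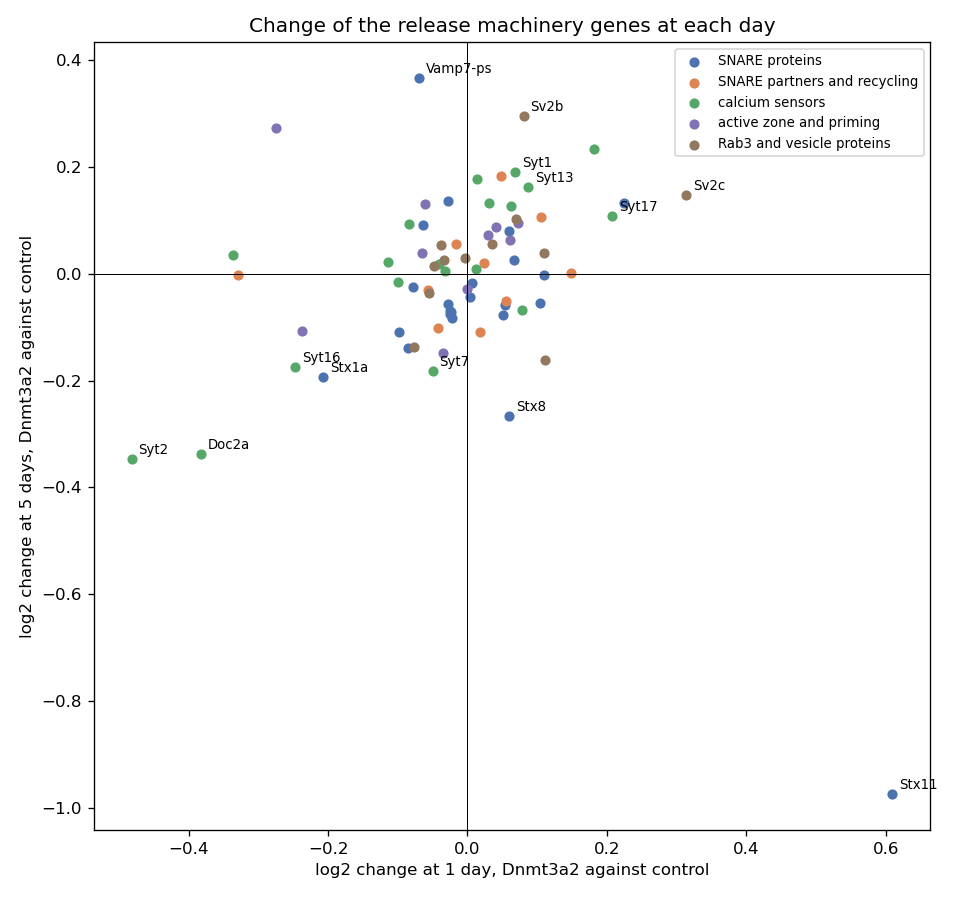
log2 change with Dnmt3a2 at 1 day (horizontal axis) against that at 5 days (vertical axis) for 74 of the 76 genes, coloured by role. Doc2a, Stx1a and Syt16 lie lower at both days, Sv2c, Syt17, Syt13, Syt1 and Sv2b higher at both, and Stx11, the lowest in level, lies far from the rest at 0.61 and -0.98.

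Between the days, no gene of the machinery passed the edgeR test in either virus group, and DESeq2 and limma called none. In control, 0% of all genes were called, and 1 of 76 genes (1.32%) had an unadjusted p under 0.05, beside 3.54% of all genes. That gene was Stx11, with 0.560, 0.270, 0.137 and 0.382 CPM at 1 day and 0.668, 0.631, 0.774 and 0.554 CPM at 5 days (log2 change 0.95, SE 0.348, edgeR adjusted p = 0.999). Syn3, Rims3, Stx3 and Nsf followed, with log2 changes of 0.27, -0.17, -0.14 and 0.08, each at an adjusted p of 0.999. In Dnmt3a2, 0% of all genes were called, and 10 of 76 (13.2%) had an unadjusted p under 0.05, 6 higher and 4 lower, beside 10.8% of all genes. Stx4a, a SNARE of the general plasma membrane, had 20.9, 19.2, 22.6 and 24.3 CPM at 1 day and 18.2, 15.7, 19.7 and 17.7 CPM at 5 days in Dnmt3a2 (log2 change -0.29, SE 0.086, edgeR adjusted p = 0.301), which overlap. Stx8, Sv2b, Syt1 and Syt12 followed, with log2 changes of -0.26, 0.24, 0.17 and 0.18 and edgeR adjusted p-values of 0.327, 0.327, 0.328 and 0.346. These values share the Dnmt3a2 libraries at 5 days with the comparison of the viruses at that day.

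Other presynaptic genes were read from 4 further lists with 64 genes in all. With Dnmt3a2, averaged over both days, 2 of the 64 rose and none fell; at the single days none was called, beside the same shares of all genes as above. Both that rose are active zone genes, of 15 active zone scaffold and calcium channel genes. Erc2, a scaffold that binds Rims and Bsn, had 168, 155, 158 and 152 CPM in control and 174, 188, 185 and 159 CPM in Dnmt3a2 at 1 day, and 168, 176, 176 and 160.3 CPM against 175, 211, 189.6 and 205 CPM at 5 days. The Erc2 libraries overlap at both days, and the averaged log2 change was 0.18 (SE 0.044, edgeR adjusted p = 0.0472). Ppfia2, a liprin-alpha, had 129.6, 118, 135 and 116 CPM in control and 139, 138, 135 and 130.2 CPM in Dnmt3a2 at 1 day, and 139.6, 133, 128 and 131 CPM against 144, 159, 149 and 151 CPM at 5 days. Its averaged log2 change was 0.15 (SE 0.038, edgeR adjusted p = 0.0457), with overlap at 1 day and none at 5 days. Neither call held under all settings. By library, Erc2 was not called without any one of 13 of the 16 libraries (all but control replicate 1 and Dnmt3a2 replicate 4 at 1 day and Dnmt3a2 replicate 1 at 5 days), nor Ppfia2 without any one of 12 (the same exceptions and control replicate 3 at 1 day), with adjusted p-values of up to 0.122 and 0.107. By processing, the Erc2 call was also lost with upper-quartile factors (adjusted p = 0.0614), limma-voom (0.0512) and no robust estimation (0.0571). The Ppfia2 call was also lost with GC content and length offsets, where the log2 change was 0.10 (adjusted p = 0.146), with no low-count filter (0.0675), with no robust estimation (0.0505) and without the choroid-rich (0.0584) or the interferon-rich libraries (0.0515). None of the 8 NSF attachment and SNARE chaperone genes, the 18 other vesicle proteins and transporters or the 23 vesicle endocytosis genes was called, with median log2 changes of -0.01, -0.04 and 0.02.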

How the data were processed

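Per the labels' protocols, libraries from 500 ng of column-purified total RNA were sequenced on BGISEQ-500. Per the submitters' processing notes, the tools were kallisto 0.4.6, Trim Galore 0.6.4 and edgeR 3.17, with GRCm38.p6; the annotation release and strand setting are not stated. The authors deposited expected counts (estimated, not normalised, 26.0% of values not whole within 1e-06) for 55385 genes and log2 CPM for 16907 genes. The latter differed from edgeR's TMM-scaled log2 CPM of the counts by at most 5.329e-15. GENCODE M21 named 55144 identifiers.

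Counts were rounded, filtered (filterByExpr by group, leaving 16899 genes, all 76 among them), TMM-scaled and fitted with edgeR 4.0.16 (R 4.3.3) as 1 robust quasi-likelihood model with a term per group; a call is an adjusted p (Benjamini-Hochberg, all genes tested) under 0.05. Intervals of 95% come from the fit. CPM were computed from the rounded counts with TMM scaling. The CPM of Ino80e alone are the deposited values taken off the log scale. At these totals 1 CPM is 28.6 to 30 counts. Exon length is that of the longest annotated transcript of a gene, with protein-coding transcripts taken first. Over 120 library pairs the chi-square per gene was 4.3 to 41.7, so none was a repeated library. The fit was also run on simulated counts, which lacked the differences between libraries in choroid plexus and interferon genes. Its outcome is not given here and no result rests on it. Alternatives used limma 3.58.1 and DESeq2 1.42.0, other scalings and filters, a replicate block and omitted libraries.

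Genes, roles and lists were chosen with earlier results of these data known. Values are given in full for genes called and, up to 5 per comparison, those of smallest p; core genes have group levels. The counts include 2 genes whose values are not reported here. Cplx2, Doc2b and the Ino80e check were added after their values were seen.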

Additional observations from a re-analysis of the deposited data

Results flagged for a closer look

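In groups of 4 libraries, 6 of the 124 group levels examined (31 genes in 4 groups) had 1 library whose gap to its nearest neighbour took more of the group's range than Dixon's 95% critical value; chance flags about 1 in 20. In control at 1 day, Rims1 was 149 CPM in replicate 1 against 126 to 129 CPM in the others, and Vamp2 was 1465 CPM in replicate 4 against 1647 to 1661 CPM. In control at 5 days, Bsn was 416 CPM in replicate 4 against 479.6 to 488 CPM, and Syt16 was 49.7 CPM in replicate 3 against 58.6 to 60.1 CPM. In Dnmt3a2 at 1 day, Snap25 was 1957 CPM in replicate 3 against 1861 to 1873 CPM, and Syt13 was 239.8 CPM in replicate 4 against 225 to 226 CPM. No gene of the machinery had an effect of Dnmt3a2 that differed between the days after adjustment.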

How the results depend on the processing

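Doc2a was called in the averaged comparison under every alternative run (log2 change -0.40 to -0.31). The count there was 2 in the reported fit, 4 at an adjusted p under 0.10, 6 with DESeq2's Wald test, 4 with GC content and length offsets (Stx7 and Syt16 added), 4 without the 3 interferon-rich libraries (Sv2b and Syt1 added), 3 with no low-count filter (Syt16 added, adjusted p = 0.0364), 2 without the 2 choroid-rich libraries (Syt1, adjusted p = 0.0295, in place of Stx1a) and 1 to 4 with each library left out. Those omissions called Sv2c (0.0274) in place of Stx1a without control replicate 3 at 1 day, Syt16 (0.0448) in place of Stx1a without control replicate 3 at 5 days, and added Syt1 (0.0313) and Sv2b (0.0352) without Dnmt3a2 replicate 1 at 5 days. At 1 day the count of 0 became 1 without a low-count filter (Doc2a, adjusted p = 0.048). At 5 days the count of 0 became 2, Sv2b and Syt1, without the 2 choroid-rich libraries, without the 3 interferon-rich ones and, with each library left out, 0 to 2. Between days, and for the difference of the effects, it was 0 throughout. No direction reversed. The cause of these shifts was not tested. Over all genes, the 15, 54 and 241 calls at 1 day, at 5 days and averaged became 59, 143 and 512 with DESeq2, 23, 104 and 442 at an adjusted p under 0.10, and 6 to 22, 22 to 82 and 121 to 272 with each library left out; the 5-day count was 94 with only the groups compared, 97 with the offsets, 90 without the choroid-rich and 105 without the interferon-rich libraries, and the 1-day count 7 with only the groups compared and 34 unfiltered. Fitting only the groups compared gives no value for the averaged comparison or the difference. With the replicate number as a block the averaged comparison called 2 genes of the machinery, Doc2a and Stx1a, and no other comparison called any. The SE was 0.0542 for Doc2a (edgeR adjusted p = 0.00142) and 0.0373 for Stx1a (edgeR adjusted p = 0.0082). Without the block it was 0.0664 and 0.0462. Of 24 pairs of libraries with equal number, 8 correlated above 0.1 (-0.082 to 0.408), and 6 of 16 libraries correlated best with their own number, so the numbers were not taken to pair the samples. Changes of other scalings moved the median of all genes by less than 0.02 on the log2 scale. Genes under 10 CPM had wide intervals, and small changes were not detectable in them.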
